A study of Mus musculus with 18 samples.

Results

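The report concerns 10 genes used as markers of lymphocytes and natural killer (NK) cells, read in RNA from mouse liver after ischemia-reperfusion (IR) or sham surgery. They were taken by symbol from the 47729 genes of the table: Cd3e, Cd4 and Cd8a for T cells, Nkg7, Gzma, Gzmb, Ccl5 and Il2rb for NK cells and cytotoxic T cells, and Cd79a and Ms4a1 for B cells. All 10 were found. IR interrupts the blood supply of the liver and then restores it. The labels describe 18 liver samples, 9 after IR and 9 after sham surgery, and each surgery has 3 samples of each of 3 genotypes, Wt, Il22-/- and Il22bp-/-. The cytokine IL-22 signals to hepatocytes and other epithelia, and IL-22BP, the product of Il22ra2, is a soluble protein that binds it. The labels give neither the age or strain of the mice nor the duration of ischemia or reperfusion.

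The liver holds a resident population of NK cells, T cells and B cells in its sinusoids. T cells recognise antigen through a receptor that signals through the CD3 chains, with CD4 or CD8 as co-receptor. NK cells and cytotoxic T cells kill by releasing granzymes from granules, depend on IL-15 that signals through the IL-2 receptor beta chain, and secrete chemokines such as CCL5. B cells carry a receptor that signals through CD79a and CD79b, and MS4A1, also called CD20, is a surface protein of B cells.

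The columns of the table are headed IR or W with a number from 1 to 9 and carry no genotype. IR columns were taken as IR libraries. W was read as sham by elimination, since 9 sham samples remain for 9 W columns while the labels give only 6 wild-type samples. Every comparison therefore sets 9 IR livers against 9 sham livers with genotypes mixed, and no genotype effect is described. Il22 was at 0 in all 18 libraries. Il22ra2 lay between 29.9 and 56.0 normalised counts in the 6 libraries numbered 7 to 9 and reached at most 1.02 in the other 12, whereas the labels give 6 samples of the Il22bp-/- genotype. The libraries held 10176617 to 12763837 reads assigned to genes, and the first principal component (67.3% of the variance) separated all IR from all sham libraries.

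Values are normalised read counts, which are gene counts divided by a size factor per library. Differences are on the scale of log2(normalised count + 1), IR minus sham, and were tested with limma across 13875 genes with a mean of at least 5, with Benjamini-Hochberg adjustment. The threshold was an adjusted p of 0.05. Much of the liver transcriptome differed: 74.4% of the genes tested passed the threshold, 36.7% lower and 37.7% higher in IR, and the median difference over all genes was 0.02. Of the genes called, 50.6% were higher in IR, and 61.7% were with every library scaled to the same total.

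Of the 10 markers, 9 were tested in that fit. Of these, 7 were lower in IR livers, against 36.7% of all genes tested, none was higher, and Cd4 and Ccl5 did not pass the threshold. Both B cell genes and 4 of the 5 NK and cytotoxic genes were lower. Among the T cell genes, Cd3e was lower, Cd4 missed the threshold and Cd8a, with a mean of 4.82, was too low for the filter. The markers called lower with a difference of -1 or lower numbered 6 of the 9 tested, and such genes were 17.3% of all genes tested. On recovered reads, edgeR's quasi-likelihood test called 8 of the 9 markers lower and none higher (all genes: 36.6% lower, 38.2% higher), and DESeq2 called 7 lower and none higher (all genes: 36.2% lower, 38.7% higher). In 6 of the 10 markers every IR library lay below every sham library, which held for 19.1% of all genes tested. Cd79a and Ms4a1 passed the filter through their sham values alone, so these counts describe the list and do not support it. In whole liver, fewer cells of a type and less RNA per cell cannot be told apart.

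**Figure D1:**
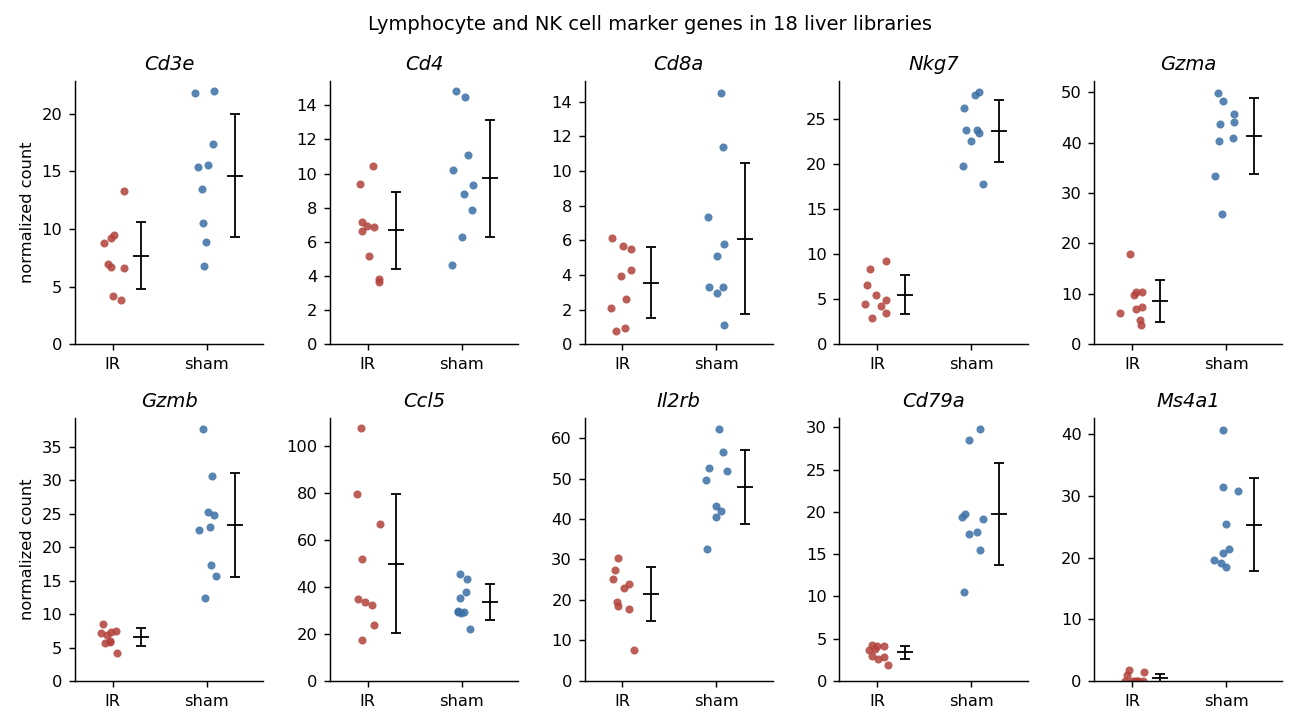
Normalised counts (y axes, linear from 0) of the 10 marker genes in 9 IR libraries (left, red) and 9 sham libraries (right, blue). Points are libraries, and bars give the mean and SD. Nkg7, Gzma, Gzmb, Il2rb, Cd79a and Ms4a1 have no overlap between the groups, whereas Cd3e, Cd4, Cd8a and Ccl5 overlap.

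Both B cell markers fell in IR livers, with Ms4a1 nearly undetected. Ms4a1 ranged from 0 through a median of 0 to 1.73 normalised counts in IR livers, against 18.5, a median of 21.4 and 40.6 in sham livers. It was at 0 in 6 of the 9 IR libraries and present in all 9 sham libraries. The recovered reads numbered 5 in all IR libraries and 215 in all sham libraries, so that the IR rate was 2.00% of the sham rate (95% exact interval 0.643% to 4.74%, which covers counting error only). Ms4a1 fell by 4.25 ± 0.27 on the log2 scale (SE, limma adjusted p = 2.14e-11), a size that depends on the pseudocount and was -2.44 with a pseudocount of 5 and -5.00 with 0.5.

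Cd79a, the signalling chain of the B cell receptor, ranged from 1.91 through a median of 3.67 to 4.30 normalised counts in IR livers, against 10.5, a median of 19.1 and 29.7 in sham livers. All IR libraries were low, and none reached the lowest sham library. The reads numbered 33 in all IR libraries and 167 in all sham libraries. The SD was 24.6% of the mean in IR livers and 30.6% in sham livers. Cd79a fell by 2.22 ± 0.20 on the log2 scale (SE, limma adjusted p = 3.75e-09). The log2 ratio of Ms4a1 to Cd79a was -1.68 ± 0.69 in IR livers and 0.35 ± 0.48 in sham livers (SD, n = 9 each), a difference of -2.03 (two-sided exact permutation test, p = 4.11e-05, the smallest the test can give; adjusted p = 0.000165 over 8 ratios). With a pseudocount of 5 the difference in this ratio was -0.91.

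Of 19 genes for the B cell receptor and B cell identity, 16 were tested, 13 were lower in IR and none was higher, with a median difference of -2.04 against 0.02 over all genes tested. Over all genes tested 36.7% were lower and 37.7% were higher, and the counts of each list below stand beside these shares. Of the 16, 9 had an IR mean under 5 and so passed the filter through their sham values, and all 9 were among those called lower. List counts and medians are in part fixed by the filter in this way and are given as a description. Cd79b, the partner of CD79a, averaged 4.28 ± 2.12 normalised counts in IR livers and 37.3 ± 6.33 in sham livers (SD, n = 9 each; limma adjusted p = 1.19e-10). Ighd, the heavy chain of IgD on naive B cells, averaged 2.30 ± 1.495 in IR livers and 26.7 ± 9.97 in sham livers (SD, n = 9 each; limma adjusted p = 1.01e-08). Fcmr, the receptor for IgM, Fcer2a, the low-affinity IgE receptor CD23, and Fcrla fell by 3.03, 2.48 and 2.43 on the log2 scale. Blnk and Btk, a signalling adaptor and a kinase that myeloid cells also express, did not pass the threshold, with differences of -0.62 (limma adjusted p = 0.113) and -0.31 (limma adjusted p = 0.143).

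Of 8 plasma cell genes, 6 were tested, 2 were lower and 3 were higher, with a median of 0.49. The 2 called lower, Jchain and Mzb1, had IR means under 5 and passed the filter through their sham values. The 3 most abundant, Xbp1, Sdc1 and Derl3, were higher in IR livers, and hepatocytes also express Xbp1 and Sdc1. Jchain, the joining chain of secreted antibody, averaged 4.35 ± 2.06 normalised counts in IR livers and 23.0 ± 7.86 in sham livers (SD, n = 9 each; limma adjusted p = 4.98e-07). Jchain was chosen after its values were seen.

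The promoter of Cd79a is shown because every IR library had less of this transcript than any sham library. The sequence holds the 250 bases before the RefSeq start site (GRCm38.p6, chr7:24897247-24897496, plus strand), of which 116 lie inside the gene as GENCODE vM21 draws it. Capitals mark the ETS core GGAAGT or its reverse complement ACTTCC.
Cd79a: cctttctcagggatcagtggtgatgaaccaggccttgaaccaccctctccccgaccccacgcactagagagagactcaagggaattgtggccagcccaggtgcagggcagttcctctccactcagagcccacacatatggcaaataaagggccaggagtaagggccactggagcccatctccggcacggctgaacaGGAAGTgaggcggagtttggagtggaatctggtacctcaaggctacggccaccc
ETS factors include regulators of lymphocyte genes. The core lay 54 to 49 bases before the start and was present in 19.7% of 32851 promoter windows of the same length, searched on both strands. It overlapped no other motif searched.

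Genes of cytotoxic granules also fell. Gzma, the granule protease granzyme A, ranged from 3.72 through a median of 7.35 to 17.9 normalised counts in IR livers, against 25.9, a median of 43.6 and 49.9 in sham livers. No IR library reached the lowest sham library. Gzma fell by 2.23 ± 0.22 on the log2 scale (SE, limma adjusted p = 1.40e-08). Gzmb, the protease granzyme B, ranged from 4.18 through a median of 6.94 to 8.59 in IR livers, against 12.4, a median of 23.1 and 37.7 in sham livers. The SD of Gzmb was 19.6% of the mean in IR livers and 33.3% in sham livers, on 65 and 196 reads. The variance among IR libraries was 0.257 times that expected from counting, against 2.44 times among sham libraries. Gzmb fell by 1.63 ± 0.19 on the log2 scale (SE, limma adjusted p = 2.10e-07).

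Nkg7, a granule membrane protein of NK cells and cytotoxic T cells, ranged from 2.86 through a median of 4.90 to 9.19 normalised counts in IR livers, against 17.7, a median of 23.8 and 28.0 in sham livers. The groups did not overlap. Nkg7 fell by 1.97 ± 0.19 on the log2 scale (SE, limma adjusted p = 9.91e-09). Il2rb, the beta chain shared by the IL-2 and IL-15 receptors, ranged from 7.64 through a median of 23.0 to 30.3 in IR livers, against 32.7, a median of 49.7 and 62.3 in sham livers. Its highest IR library came close to its lowest sham library without reaching it. Il2rb fell by 1.18 ± 0.20 on the log2 scale (SE, limma adjusted p = 2.20e-05).

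The promoters of 3 cytotoxic genes that fell are shown, each with the 250 bases before the RefSeq start site in GRCm38.p6. Capitals mark the RUNX core TGTGGT or its reverse complement ACCACA. Nkg7 lies at chr7:43436888-43437137 on the plus strand, Gzma at chr13:113100982-113101231 on the minus strand and Gzmb at chr14:56262335-56262584 on the minus strand. Of the Nkg7 bases, 65 lie inside the gene as GENCODE vM21 draws it. The Gzmb window comes no closer than position 56262335, whereas GENCODE vM21 ends that gene at 56262260. Distances to the start therefore depend on the annotation.
Nkg7: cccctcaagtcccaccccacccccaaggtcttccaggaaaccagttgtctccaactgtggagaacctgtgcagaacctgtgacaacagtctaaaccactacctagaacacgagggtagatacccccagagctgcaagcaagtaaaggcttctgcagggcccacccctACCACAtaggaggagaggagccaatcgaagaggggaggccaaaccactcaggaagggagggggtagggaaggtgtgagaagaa
Gzma: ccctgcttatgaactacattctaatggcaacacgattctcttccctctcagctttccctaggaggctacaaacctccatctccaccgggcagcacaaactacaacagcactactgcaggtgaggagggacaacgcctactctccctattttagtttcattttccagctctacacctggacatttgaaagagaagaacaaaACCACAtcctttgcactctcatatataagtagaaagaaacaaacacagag
Gzmb: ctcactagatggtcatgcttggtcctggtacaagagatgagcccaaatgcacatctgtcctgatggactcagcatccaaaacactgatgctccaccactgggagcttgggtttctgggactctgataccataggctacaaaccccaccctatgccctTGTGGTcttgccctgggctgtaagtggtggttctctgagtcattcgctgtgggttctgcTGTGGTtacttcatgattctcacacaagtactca
RUNX factors regulate genes of cytotoxic lymphocytes. The core lay 83 to 78 bases before the start in Nkg7 and 50 to 45 bases before it in Gzma. In Gzmb it lay 93 to 88 and again 34 to 29 bases before the start. It was present in 14.0% of 32851 windows of the same length on either strand, and no match overlapped another motif. RefSeq promoters were matched for 6 of the 10 markers, 3 with the RUNX core and 2, Cd3e and Cd79a, with the ETS core. TATAAA on the gene's strand was in none of the 6 and in 7.59% of all windows. A match describes letters only.

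Ccl5, a chemokine of T cells, NK cells and activated macrophages, did not pass the threshold. It ranged from 17.6 through a median of 35.0 to 108 normalised counts in IR livers, against 21.9, a median of 29.9 and 45.6 in sham livers. Of the 9 IR libraries, 4 exceeded every sham library and 1 lay below every sham library. The difference was 0.38 (95% interval -0.19 to 0.95; limma adjusted p = 0.216), and with every library scaled to the same total it was 0.61 (limma adjusted p = 0.0485). The variance among IR libraries was 18.9 times that expected from counting, against 1.64 times among sham libraries. For the other 9 markers this ratio was between 0.216 and 2.34 in IR and between 0.449 and 2.91 in sham livers. At the same relative spread the ratio grows with read number. Ccl5 had 480 reads in IR livers, against 5 to 211 for the other markers. As a share of the mean, the SD in IR livers was 59.4% for Ccl5 and 19.6% to 155% for the other markers.

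The log2 ratio of Ccl5 to Nkg7 was 2.82 ± 0.69 in IR livers and 0.47 ± 0.39 in sham livers (SD, n = 9 each). It was higher in 9 of 9 IR libraries than the sham median, with a difference of 2.35 (two-sided exact permutation test, p = 4.11e-05, the smallest possible; adjusted p = 0.000165 over 8 ratios). Relative to Nkg7, Il2rb was also higher in IR, with a log2 ratio of 1.78 ± 0.56 in IR livers and 0.98 ± 0.35 in sham livers (SD, n = 9 each; exact permutation adjusted p = 0.00309). The ratio of Gzma to Nkg7 did not pass the threshold, with a difference of -0.26 (exact permutation adjusted p = 0.347). The call on the ratio of Gzmb to Gzma turned on 1 library: the difference was 0.60 (exact permutation adjusted p = 0.103) and 0.75 (exact permutation adjusted p = 0.0287) without IR library 2, in which Gzma was highest.

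Cd3e, the epsilon chain of the CD3 complex, ranged from 3.82 through a median of 6.94 to 13.3 normalised counts in IR livers, against 6.76, a median of 15.4 and 21.9 in sham livers. The ranges overlapped. Cd3e fell by 0.84 ± 0.25 on the log2 scale (SE, limma adjusted p = 0.00437). The reduction was smaller than that of Nkg7 and of Cd79a within the same libraries. The log2 ratio of Nkg7 to Cd3e was -0.40 ± 0.55 in IR livers and 0.73 ± 0.49 in sham livers (SD, n = 9 each; exact permutation adjusted p = 0.00123). The log2 ratio of Cd79a to Cd3e was -0.94 ± 0.43 in IR livers and 0.44 ± 0.51 in sham livers (SD, n = 9 each; exact permutation adjusted p = 0.000329).

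Cd4, the co-receptor of helper T cells that mouse dendritic cells can also express, ranged from 3.67 through a median of 6.85 to 10.4 normalised counts in IR livers, against 4.62, a median of 9.32 and 14.9 in sham livers. Most of both ranges overlapped. The difference was -0.47 (95% interval -0.96 to 0.01; limma adjusted p = 0.0732). Its call changed with the method, at an adjusted p of 0.0492 in edgeR's quasi-likelihood test on recovered reads and of 0.0259 in limma without sham library 5. Cd8a, the alpha chain of the CD8 co-receptor, ranged from 0.745 through a median of 3.92 to 6.13 in IR livers, against 1.13, a median of 5.11 and 14.5 in sham livers. The difference was -0.57 (two-sided exact permutation test, p = 0.166). Only 34 reads in IR and 52 in sham livers lay behind Cd8a. The ratio of Cd8a to Cd4 was not distinguishable between the groups at this depth, with a difference of -0.09 (exact permutation adjusted p = 0.843).

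**Figure D2:**
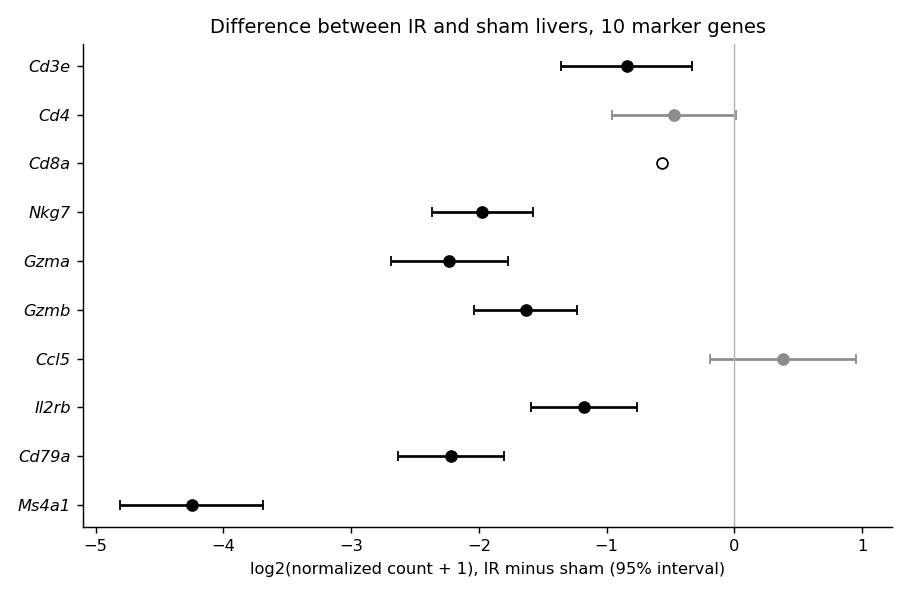
Difference between IR and sham livers for each marker (x axis, log2(normalised count + 1), IR minus sham). Filled points are limma estimates with 95% intervals, black where the adjusted p passed the threshold and grey where it did not; the open point for Cd8a is a difference of means tested by permutation. The points run from -4.25 for Ms4a1 to 0.38 for Ccl5.

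Per kilobase of merged exons, the levels in IR livers were in the order Ccl5, Gzma, Nkg7, Il2rb, Gzmb, Cd79a, Cd3e, Cd4, Cd8a and Ms4a1. Ccl5 led with 51.9 ± 30.9 normalised counts per kilobase (SD, n = 9), above the highest library of Gzma at 17.8. Each following gene overlapped the next in range. In sham livers the order was Gzma, Ccl5, Nkg7, Gzmb, Cd79a, Il2rb, Ms4a1, Cd3e, Cd4 and Cd8a. Gzma led there with 41.1 ± 7.48 per kilobase (SD, n = 9), and the ranges of neighbours overlapped except between Il2rb and Ms4a1. Ms4a1 had 0.0762 ± 0.118 per kilobase in IR livers and 4.09 ± 1.22 in sham livers (SD, n = 9 each).

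Of 18 other genes of the T cell receptor complex and its signalling, 14 were tested, 13 were lower in IR and 1 was higher, with a median of -1.27. Of the 13, 5 passed the filter through their sham values, and the 1 higher gene passed through its IR values. Cd3g, another CD3 chain, averaged 4.48 ± 3.08 normalised counts in IR livers and 24.2 ± 5.06 in sham livers (SD, n = 9 each; limma adjusted p = 4.61e-07). Trbc1 and Trbc2, the constant regions of the receptor beta chain, fell by 2.10 and 1.77 on the log2 scale, and their near-identical sequences may share reads. Ptprcap and Cd2, a CD45-associated protein and an adhesion receptor, fell by 1.77 and 1.51. Zap70, the kinase of the receptor, averaged 75.6 ± 28.3 in IR livers and 451 ± 184 in sham livers (SD, n = 9 each; limma adjusted p = 1.01e-08). Its sham level was far above those of Cd3g, at 24.2, and Cd3e, at 14.6. Which cells the Zap70 reads came from was not tested. Cd28, a costimulatory receptor, was the exception, at 9.54 normalised counts in IR livers and 4.01 in sham livers, and was named after its values were seen.

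Of 20 genes for T cell subsets, homing and checkpoints, 13 were tested, 5 were lower and 3 were higher, with a median of -0.36, and 2 of the 5 passed the filter through their sham values. Cxcr6, the chemokine receptor of liver-resident lymphocytes, averaged 4.46 ± 3.51 normalised counts in IR livers and 31.9 ± 6.0 in sham livers (SD, n = 9 each; limma adjusted p = 1.52e-08). Icos, a costimulatory receptor, and Cxcr3, a receptor for interferon-induced chemokines, fell by 1.53 and 1.22 on the log2 scale. S1pr1 and Cd44 rose by 0.56 and 0.54, and both are expressed beyond lymphocytes. Klf2 did not pass the threshold, with a difference of 0.17.

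Of 20 genes for NK cell receptors and transcription factors, 8 were tested, 6 were lower and 1 was higher, with a median of -1.05, against 36.7% lower and 37.7% higher over all genes tested. Of the 6, 3 passed the filter through their sham values. Klrd1, the CD94 receptor subunit, averaged 2.30 ± 1.498 normalised counts in IR livers and 13.8 ± 4.50 in sham livers (SD, n = 9 each; limma adjusted p = 1.06e-06). Klrk1, the NKG2D receptor, averaged 5.80 ± 4.29 in IR livers and 22.8 ± 5.74 in sham livers (SD, n = 9 each; limma adjusted p = 4.40e-05). Klrb1c, the NK1.1 antigen, fell by 1.54 on the log2 scale, and Cd160 and Cd7 by 1.11 and 0.99. Il18rap, a subunit of the IL-18 receptor, averaged 18.6 ± 11.1 in IR livers and 6.38 ± 2.57 in sham livers (SD, n = 9 each; limma adjusted p = 0.00140). S1pr5 did not pass the threshold, with a difference of -0.29.

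Of 15 granule and effector genes, 7 were tested, 4 were lower and 2 were higher, with a median of -0.77, and both higher genes passed the filter through their IR values. Tnfsf10, the death ligand TRAIL, averaged 14.6 ± 11.7 normalised counts in IR livers and 124 ± 28.2 in sham livers (SD, n = 9 each; limma adjusted p = 2.49e-09). Serpinb9, the inhibitor of granzyme B, Ctsw, a cathepsin of cytotoxic cells, and Serpinb6b fell by 1.28, 1.03 and 0.77 on the log2 scale. In sham livers Tnfsf10 and Serpinb9 averaged 124 and 173 normalised counts, against 41.3 for Gzma. Which cells the reads of Tnfsf10 and Serpinb9 came from was not tested. Ccl3 and Ccl4, chemokines that are also products of macrophages and neutrophils, moved the other way. Ccl4 averaged 24.4 ± 19.97 in IR livers and 1.66 ± 0.76 in sham livers (SD, n = 9 each; limma adjusted p = 1.69e-05). Ccl3 averaged 24.1 ± 20.6 in IR livers and 2.95 ± 1.02 in sham livers (SD, n = 9 each; limma adjusted p = 5.95e-05). Srgn, the granule proteoglycan, did not pass the threshold, with a difference of 0.53.

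In the IL-2 and IL-15 receptor axis, 9 of 11 genes were tested, 2 were lower and 2 were higher, with a median of -0.19, against 36.7% lower and 37.7% higher over all genes tested. Il15, the cytokine that maintains NK cells, averaged 8.43 ± 3.40 normalised counts in IR livers and 66.8 ± 13.7 in sham livers (SD, n = 9 each; limma adjusted p = 1.09e-10). Its receptor chain Il15ra fell by 0.54 on the log2 scale. Jak3, the kinase bound to the common gamma chain, rose by 1.95, and Stat5a rose by 0.87. Jak3 averaged 432 in IR and 109 in sham livers. Il2rg, which encodes that chain, averaged 37.0 and 42.2 and did not pass the threshold. Which cells the Jak3 reads came from was not tested. Jak1 and Stat5b did not pass the threshold, with differences of -0.04 and 0.12. Of the 5 CCL5 receptors, 4 were tested and 2 were higher in IR, 1 of which passed the filter through its IR values. Ccr1, also carried by neutrophils and monocytes, averaged 68.9 ± 43.4 in IR livers and 3.21 ± 1.23 in sham livers (SD, n = 9 each; limma adjusted p = 1.56e-09). Ackr2, a scavenging receptor, rose by 0.59, whereas Ackr1 (0.52) did not pass the threshold.

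Markers of other cells moved with the comparison in either direction, and their part in the lymphocyte results was not tested. All 8 neutrophil genes tested of 12 listed were higher in IR livers, with summed levels of 345 to 4371 normalised counts in IR and 63.2 to 136 in sham livers. Of these, Retnlg, Mmp8, Cxcr2 and Ngp had sham means under 5 and passed the filter through their IR values. The count is therefore a description. S100a9, S100a8 and Retnlg rose by 4.07, 3.94 and 5.55 on the log2 scale. Of 10 Kupffer cell genes, 9 were lower and 1 was higher, with sums of 3836 to 6139 in IR and 8594 to 12490 in sham livers; Clec4f, Cd5l and C1qc fell by 1.32, 1.83 and 1.11. Of 8 monocyte genes, 5 were higher and 1 was lower, with Fn1 and Cd14 higher and Plac8 lower. Fn1 averaged 37865 normalised counts in IR and 10142 in sham livers, and which cells its reads came from was not tested. Chil3 and F13a1, also higher, had sham means under 5 and passed the filter through their IR values. Of 8 hepatocyte genes, 7 were lower, including Alb at 523199 normalised counts in IR and 1780990 in sham livers, Apoa1 and Ttr, and 1 was higher.

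Of 8 pan-leukocyte genes, 4 were lower and 1 was higher, with a median of -0.17 and sums of 1444 to 3724 in IR and 2056 to 2401 in sham livers. Lcp1 and Coro1a did not pass the threshold, with differences of 0.13 and 0.31, and Laptm5 rose by 0.39. Ptprc, which encodes CD45 and was named after its values were seen, averaged 115 ± 35.0 normalised counts in IR livers and 159 ± 28.6 in sham livers (SD, n = 9 each; limma adjusted p = 0.0106). Dendritic cell genes (4 lower and 1 higher of 7 tested) and endothelial genes (4 lower and 2 higher of 8) moved both ways. Among the dendritic cell genes called lower, Xcr1, Siglech and Itgae had IR means under 5 and passed the filter through their sham values. Erythroid genes were called in 1 of 5 tested, platelet genes in 2 of 3 and mast cell and basophil genes in 0 of 1, where Fcer1a was at 0 in all libraries.

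**Figure D3:**
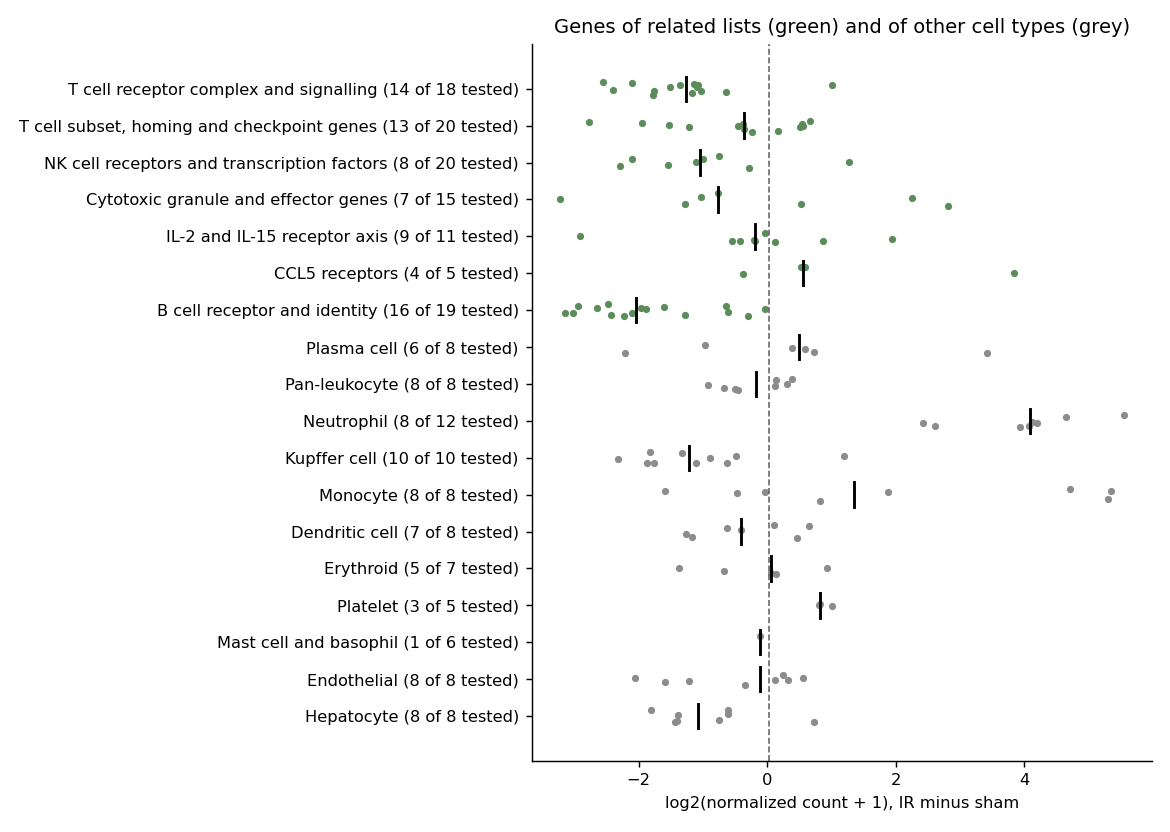
Difference between IR and sham livers (x axis, log2(normalised count + 1), IR minus sham) of each tested gene in 18 lists, with list medians as vertical bars and the median of all genes tested, 0.02, as a dashed line. Green lists belong to lymphocytes and their ligands, grey lists to other cells. B cell genes have the lowest list median (-2.04) and neutrophil genes the highest (4.09). Both medians cover tested genes only and are in part fixed by the filter.

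Across the 7 lymphocyte lists, 70 of 106 distinct genes were tested, 43 were lower in IR and 11 were higher, with a median of -1.03, against 36.7% lower, 37.7% higher and a median of 0.02 over all genes tested. Of the 43, 19 had an IR mean under 5 and passed the filter through their sham values, and of the 11, 4 passed through their IR values. The means of both groups were at least 5 in 47 of the 70, of which 24 were lower and 7 were higher. The counts and the median are therefore a description. The 36 genes not tested had a mean under 5 over all libraries and so fell below the filter. They include Ncr1, an NK cell receptor, the transcription factors Eomes and Tbx21, the perforin gene Prf1 and Ifng, each with a mean under 5.

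Relations between markers within a group were examined last. Of 20 correlations (10 pairs in each group of 9 libraries, genotypes mixed), none passed an adjusted p of 0.05 by Pearson's r, and 2 had an unadjusted exact p under 0.05. These were Cd3e with Cd8a (r = 0.720, exact permutation p = 0.0295; rho = 0.650, p = 0.0666; r = 0.49 without the 2 libraries farthest from the median of Cd3e) and Gzma with Gzmb, both in IR livers. For Gzma and Gzmb in IR livers, r was -0.717 (exact permutation p = 0.0302, adjusted p = 0.302) and rho was -0.900 (exact permutation p = 0.00203, adjusted p = 0.0406), and r was -0.863 without the 2 farthest libraries. In sham livers r was 0.232 (exact permutation p = 0.549) and rho 0.583 (exact permutation p = 0.108). Between 4 and 19 reads per IR library lay behind these values, and the difference between the groups was not tested.

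**Figure D4:**
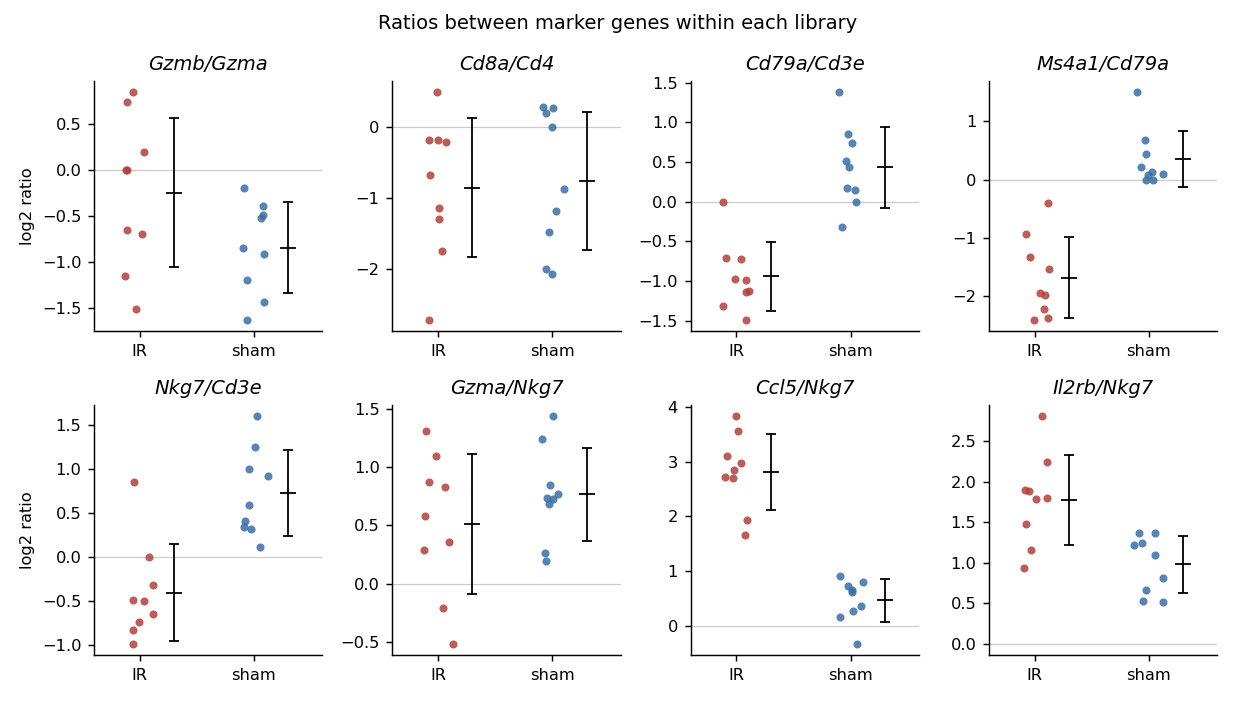
Log2 ratios between marker genes within each library (y axes, pseudocount 1) in 9 IR libraries (left, red) and 9 sham libraries (right, blue), with mean and SD. Ccl5/Nkg7 is higher in every IR library (1.66 to 3.84) than in any sham library (-0.32 to 0.91), and Ms4a1/Cd79a is lower in every IR library (-2.40 to -0.40) than in any sham library (0 to 1.499).

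The positions of the markers in GRCm38 (GENCODE vM21) are as follows, all protein-coding. Cd3e (ENSMUSG00000032093) lies on chromosome 9 from 44998740 to 45009627, and 135 of its 4080 exonic bases overlap a gene on the other strand. None of the other 9 overlaps the exons of another gene. Gzma (ENSMUSG00000023132) lies on chromosome 13 from 113093825 to 113100981 and Gzmb (ENSMUSG00000015437) on chromosome 14 from 56258838 to 56262260. Cd79a (ENSMUSG00000003379) lies on chromosome 7 from 24897381 to 24902197, and Nkg7 (ENSMUSG00000004612) on the same chromosome from 43437073 to 43438249. Ms4a1 (ENSMUSG00000024673) lies on chromosome 19 from 11249675 to 11266241, Ccl5 (ENSMUSG00000035042) on chromosome 11 from 83525778 to 83530518 and Il2rb (ENSMUSG00000068227) on chromosome 15 from 78479256 to 78495271. Cd4 (ENSMUSG00000023274) and Cd8a (ENSMUSG00000053977) lie on chromosome 6, from 124864692 to 124888221 and from 71373427 to 71379173.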

How the data were processed

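Liver RNA libraries were made with a NEBNext Ultra kit, per the labels' protocols. Trimmomatic 0.33, STAR 2.5.0a, DESeq2 1.14 and GRCm38 appear in the submitters' processing notes. The read counter, strand setting, annotation and filters were not stated. The deposited table holds a normalized signal per gene: each count was scaled by the authors with a DESeq2 size factor, per its name. In each column 100% of the values were whole multiples of its smallest value above 0 (relative tolerance 1e-06), which gave back the reads.

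IDs were named with GENCODE vM21 (47224 of 47729). limma 3.58.1 with trend was run in R 4.3.3 on log2(value + 1), genotypes mixed, for genes with a mean of at least 5. edgeR 4.0.16 and DESeq2 1.42.0 were run on recovered reads as alternatives, and all were tested on simulated data. Exact permutation tests enumerated all 48620 assignments. Other alternatives were the pseudocount, filter, scaling, a replicate block and leaving out each library. The markers, 18 lists and tests were chosen with earlier results of these data known. List genes were named by the size of the difference among those called (up to 6) and by level (2 not called, or 3 in lists of other cells); exceptions are marked, and some genes are not reported here. Labels do not say that samples came from separate animals, so p-values measure the spread between samples. Promoters are RefSeq's. Intervals from reads cover counting error only.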

Additional observations from a re-analysis of the deposited data

Results flagged for a closer look

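Among the 9 IR libraries, Gzma was highest in library 2, at 17.9 normalised counts, with the next library at 10.5. The gap was 0.526 of the whole range, above Dixon's 95% limit for 9 samples. This was 1 of 20 groups examined (10 markers in 2 groups), and chance marks about 1 in 20. Ccl5 was also highest in that IR library, at 108. Without it the difference in Gzma was -2.37 (limma adjusted p = 2.03e-09).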

How the results depend on the processing

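All 9 markers tested in limma kept their direction under every alternative, and the 7 called lower stayed past the threshold wherever they were tested. With a filter at a mean of 20, fewer genes were tested: 2 markers, 14 lymphocyte list genes lower and 7 higher were called, against 7, 43 and 11. With no filter beyond a mean above 0, 59 lymphocyte list genes were called lower and 12 higher. With every library scaled to the same total, 1 marker (Ccl5) was called higher, the median of all genes was 0.26, and 61.7% of calls were higher in IR against 50.6%; the cause was not tested. Leaving out each library gave 7 to 8 markers lower. Cd4 passed in limma without trend, in edgeR, and without IR library 8 or sham library 5 (adjusted p 0.0259 to 0.317 over the alternatives fitted across all genes), and its unadjusted exact permutation p was 0.0470. A pseudocount of 5 brought Gzmb/Gzma past the threshold (0.56, adjusted p = 0.0398) and turned Cd8a/Cd4 to 2.41e-05. Leaving out each library gave 0.46 to 0.75 for Gzmb/Gzma and -0.26 to 0.14 for Cd8a/Cd4. With a pseudocount of 5, the difference was -0.92 for Cd79a/Cd3e and 0.43 for Il2rb/Nkg7. Without logs, the correlation was -0.00738 for Cd79a with Ms4a1 in IR livers and 0.0258 for Nkg7 with Ccl5 in sham livers. With a replicate block on the header number, 5048 genes were lower and 5170 higher, against 5095 and 5224, and no marker's call changed; same-numbered IR and sham libraries correlated between -0.0691 and 0.121, so the numbers were not taken as pairs. edgeR without sham library 1, chosen after seeing the data, also called the 7 lower. Depth limits Cd8a, Ms4a1 in IR, and the 36 untested list genes.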

Other observations

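Among the genes whose deviations from the group means were most like those of a marker over the 18 libraries, of 13874 genes compared, were Sh2d2a (r = 0.811), Thy1 (0.758), Tbc1d10c (0.750) and Mad1l1 (0.742) for Cd3e. Sh2d2a encodes a T cell adaptor and Thy1 a surface protein of T cells. For Nkg7 they were Mbtps1 (0.849), Letmd1 (0.842), Cgrrf1 (0.840), Syt1 (0.833) and Scarf1 (0.831), and for Cd79a Tead3 (0.847), Fau (0.815), Ttc5 (0.8002), Itga7 (0.799) and Stub1 (0.796). These are the highest of many values and are given as a description, without a test.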
